A study of Mus musculus with 9 samples.

Results

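The factors that give brown adipocytes their identity were examined in brown adipose tissue of obese mice given cotadutide. They were 10 genes chosen by symbol: Prdm16, Ebf1, Ebf2, Ebf3, Zic1, Lhx8, Tbx15, Ehmt1, Zfp516 and Zfp423. All 10 were found among the 49315 genes counted per library, and all 10 passed the filter on low counts that left 14747 genes for testing. The tested mice received cotadutide, a peptide that activates the receptor of glucagon-like peptide 1 and that of glucagon, by daily injection under the skin for 28 days (5 mice, numbered 1 to 5). The comparison mice received vehicle on the same schedule (4 mice, numbered 1 to 4). Mice of both groups were male, obese C57Bl/6J animals on a 60% high fat diet, 14 weeks old at the outset, singly housed and not kept at thermoneutrality. Each library was made from polyadenylated RNA of the tissue of 1 mouse. The location of the fat depot is not given in the sources used here.

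Brown adipocytes arise from a lineage they share with skeletal muscle and with other fat cells, and a small set of nuclear proteins steers cells toward the brown fate. Ebf proteins open chromatin at brown fat genes with the nuclear receptor PPAR gamma, and Prdm16, held in a complex with the histone methyltransferase Ehmt1, favours brown over muscle and white fat genes. Zfp423 works in the other direction in mature fat, where it holds back Ebf2 and keeps adipocytes white, although it also commits precursor cells to the adipose lineage in mice. Zic1, Lhx8 and Tbx15 mark fat depots by their embryonic position, and Zfp516 is a cold-responsive activator of the uncoupling protein gene Ucp1.

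Library totals spanned 10.8 to 19.5 M counts (M, mega) for cotadutide and 16.1 to 25.1 M counts for vehicle. The defining genes of the tissue were present in every library, since the summed level of 10 brown adipocyte markers was 12030 to 17290 CPM in cotadutide mice and 7971 to 12320 CPM in vehicle mice. CPM here are counts per 1 M counts of the scaled library. mRNA of other cells was present as well. The summed level of 16 skeletal muscle markers was 5798 to 21660 CPM in cotadutide mice and 24800 to 52920 CPM in vehicle mice, without overlap, and 8 of the 16 fell by edgeR. The summed level of 8 B cell markers was 43.0 CPM in cotadutide mouse 3, against 1.90 to 3.46 CPM in the other cotadutide mice and 2.27 to 3.83 CPM in vehicle mice. That of 8 T and NK cell markers was also highest there, at 20.6 CPM. Of 12 macrophage markers 6 fell, with sums of 221 to 470 CPM in cotadutide mice and 364 to 603 CPM in vehicle mice. In whole tissue, fewer cells of a type and less RNA per cell cannot be told apart.

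Of the 10 factors, Ebf1 rose and Tbx15 and Zfp423 fell under cotadutide, and the other 7 did not pass the test (edgeR's quasi-likelihood test, Benjamini-Hochberg adjusted p under 0.05 over all 14747 genes). Over all genes tested, 9.31% were called higher and 9.34% lower, or 18.7% in either direction, so that 3 calls among 10 genes stood not far from the background. With plain library totals in place of the scaled ones, the split over all genes was 1046 higher and 1658 lower, against 1373 higher and 1378 lower here. The same 3 factors were the ones whose groups did not overlap, which held for 8.06% of all genes tested in the higher and 7.79% in the lower direction, or 15.8% in all. The median log2 fold change of the 10 factors was 0.10, with 5 above 0 and 5 below, against 0.003 over all genes tested. The factors differed in direction among themselves, from a log2 fold change of -1.16 for Tbx15 to 0.50 for Lhx8.

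**Figure D1:**
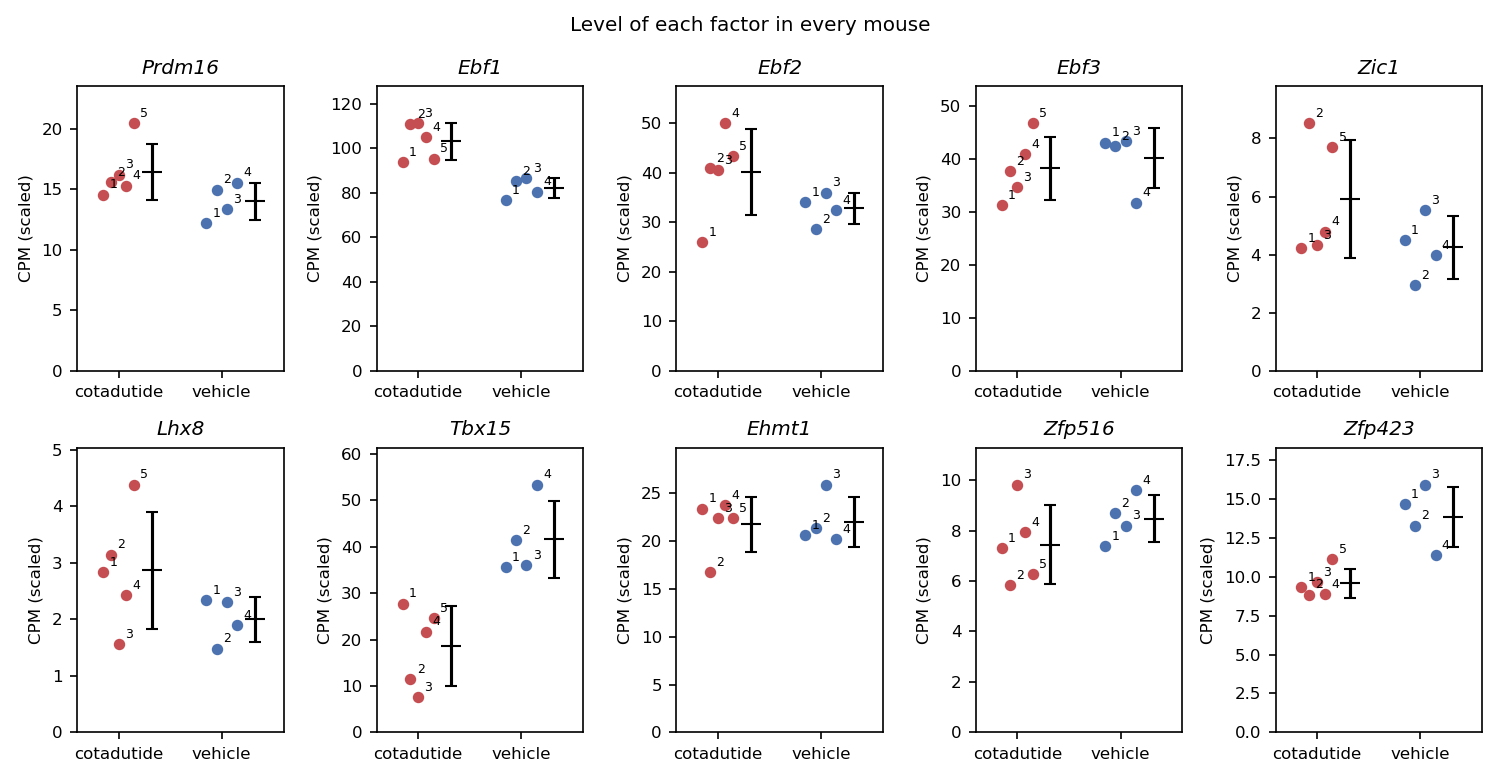
Scaled CPM of each of the 10 factors in every mouse, cotadutide in red on the left and vehicle in blue on the right of each panel, with the mouse number beside each point. Black bars give the mean and SD (n = 5 and n = 4). The points of the groups are separate for Ebf1, Tbx15 and Zfp423, while those of the other 7 factors overlap.

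**Figure D2:**
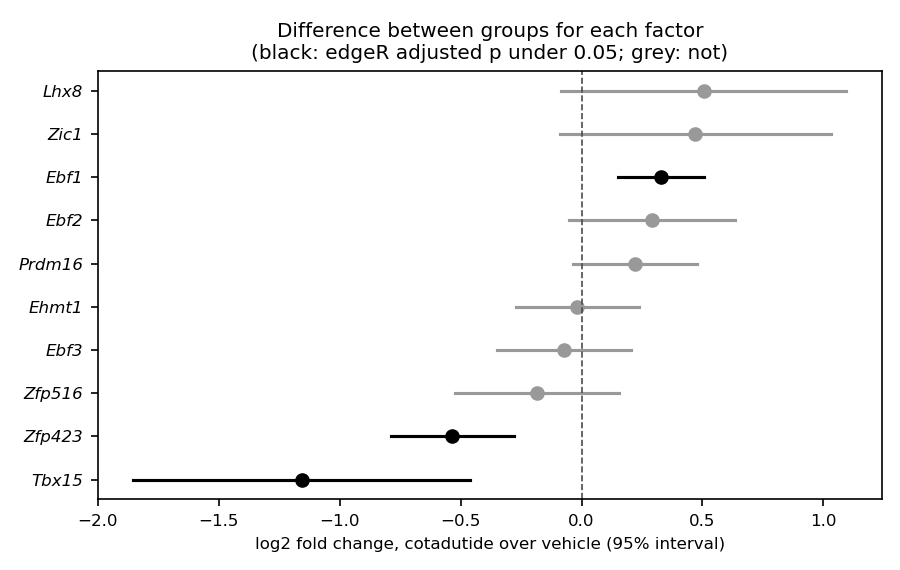
Log2 fold change of each factor, cotadutide over vehicle, as points with 95% intervals from edgeR, ordered from the highest value at the top. Only Ebf1, Zfp423 and Tbx15, in black, had an adjusted p under 0.05. The intervals of the grey factors include 0.

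The factors also differed in level. Per kilobase of the length given in the files, Ebf1 was the highest of the 10 in cotadutide mice, at 10.6 ± 0.854 CPM per kb, and stood at 8.43 ± 0.461 CPM per kb in vehicle mice (SD, n = 5 and n = 4). Tbx15 was the third highest in cotadutide mice at 4.97 ± 2.32 CPM per kb, but the highest in vehicle mice at 11.1 ± 2.21 CPM per kb. It was below Ebf1 in all 5 cotadutide libraries and above Ebf1 in all 4 vehicle libraries. Ebf2 (5.80 ± 1.26 CPM per kb for cotadutide, 4.74 ± 0.447 for vehicle), Ebf3 (4.14 ± 0.646 and 4.35 ± 0.608) and Ehmt1 (2.67 ± 0.350 and 2.71 ± 0.323) came next. Ebf2 stood above Ebf3 in 8 of 9 libraries, and Ebf3 above Ehmt1 in 9 of 9. Zfp423 (1.71 ± 0.168 and 2.46 ± 0.345 CPM per kb) was below Prdm16 in 4 of 5 cotadutide libraries and above it in 4 of 4 vehicle libraries. Prdm16 itself stood at 1.76 ± 0.251 and 1.51 ± 0.163 CPM per kb. Zfp516 (0.951 ± 0.201 and 1.08 ± 0.119 CPM per kb), Lhx8 (1.13 ± 0.407 and 0.790 ± 0.158) and Zic1 (1.04 ± 0.359 and 0.747 ± 0.189) were the lowest, and their order did not hold from library to library. Lhx8 was above Zic1 in 6 of 9 libraries.

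Prdm16, a zinc finger protein that turns cells of the muscle lineage toward brown fat in mice, was measured at 14.56, 15.58, 16.22, 15.3 and 20.47 CPM in cotadutide mice 1 to 5, against 12.21, 14.97, 13.37 and 15.56 CPM in vehicle mice 1 to 4. The highest value came from cotadutide mouse 5, and 3 cotadutide mice were above every vehicle mouse. The difference was within the spread (log2 fold change 0.22, SE 0.12, 95% interval -0.03 to 0.48, edgeR adjusted p = 0.198). It lay at 0.11 without cotadutide mouse 5 (edgeR adjusted p = 0.456). Prdm16 (ENSMUSG00000039410) occupies chromosome 4 from 154316125 to 154636873 in the mm10 coordinates of the files. Its enzyme partner Ehmt1 averaged 21.7 ± 2.85 CPM in cotadutide and 22.0 ± 2.62 CPM in vehicle mice (SD, n = 5 and n = 4). Its log2 fold change was -0.02 with a 95% interval of -0.27 to 0.24 (edgeR adjusted p = 0.930).

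The Ebf genes encode helix-loop-helix factors that bind the same DNA motif. Ebf1, which also directs B lymphocyte development, stood at 93.8, 110.8, 111, 105 and 95.4 CPM in cotadutide mice 1 to 5, against 76.6, 85.2, 86.5 and 80.6 CPM in vehicle mice 1 to 4. Every cotadutide mouse was above every vehicle mouse. Ebf1 rose 1.26-fold, by 0.33 on the log2 scale with an SE of 0.08 (edgeR adjusted p = 0.0235). The call was lost without vehicle mouse 1, 2 or 3 (edgeR adjusted p = 0.0802, 0.0677 and 0.0579) and without cotadutide mouse 2 or 3 (0.0547 and 0.0624), where the log2 fold change stayed between 0.28 and 0.35. Calls over all genes also fell in these fits, to 42 to 546 higher and 92 to 818 lower, from 1373 and 1378. The summed B cell markers were 43.0 CPM in cotadutide mouse 3, where Ebf1 was highest, and 3.46 CPM in cotadutide mouse 2, where Ebf1 was next. Without cotadutide mouse 3 the log2 fold change of Ebf1 was 0.28, and the part of B cells in the Ebf1 result was not tested. Each of the 8 B cell markers had counts in at least 1 of the 9 libraries, but Vpreb3, Blk and Fcmr were at 0 in cotadutide mouse 5. Only 2 of the 8 had enough counts to be tested, with 0 called. With plain library totals the edgeR adjusted p of Ebf1 was 0.0536 and its log2 fold change 0.26. Summed mRNA of 12 markers shared by fat cells was also higher in every cotadutide mouse, at 27870 to 33260 CPM against 20700 to 24280 CPM in vehicle mice, with 7 of 12 higher and 0 lower by edgeR, and its part in the Ebf1 result was not tested.

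Ebf2, the family member most selective for brown precursor cells, gave 26.1, 41.0, 40.6, 50.0 and 43.3 CPM in cotadutide mice 1 to 5, against 34.1, 28.7, 36.0 and 32.5 CPM in vehicle mice 1 to 4. Cotadutide mouse 1 was below all vehicle mice and the other 4 cotadutide mice were above them. The test over all 9 libraries was not passed (log2 fold change 0.29, SE 0.16, 95% interval -0.05 to 0.64, edgeR adjusted p = 0.204). Without cotadutide mouse 1 the edgeR adjusted p was 0.0245 and the log2 fold change 0.39, so that 1 library decided the call. Ebf3 averaged 38.2 ± 5.96 CPM in cotadutide and 40.2 ± 5.61 CPM in vehicle mice (SD, n = 5 and n = 4), with a log2 fold change of -0.07 and a 95% interval of -0.35 to 0.20 (edgeR adjusted p = 0.711). Vehicle mouse 4 had 31.8 CPM of Ebf3, while vehicle mice 1 to 3 had 42.4 to 43.4 CPM. Ebf2 took 21.9 ± 3.04% of the counts of these 3 genes in cotadutide and 21.2 ± 1.88% in vehicle mice (exact two-sided permutation p = 0.778, also after adjustment over 3 ratios). Ebf4, the remaining paralog, was near the lower limit of the test at 0.476 ± 0.202 CPM in cotadutide and 0.575 ± 0.162 CPM in vehicle mice.

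The promoters of Ebf1 are shown because it was the one factor that rose. They are RefSeq windows of build GRCm38.p6 that run from 250 bases before to 50 bases after a transcript start, on the plus strand. Capitals would mark any match, on either strand, to the core of the Ebf motif, CCCNNGGG, to the cyclic AMP response element TGACGTCA, to the T-box motif AGGTGTGA or to the GC box GGGCGG.
Ebf1, chr11:44617850-44618149: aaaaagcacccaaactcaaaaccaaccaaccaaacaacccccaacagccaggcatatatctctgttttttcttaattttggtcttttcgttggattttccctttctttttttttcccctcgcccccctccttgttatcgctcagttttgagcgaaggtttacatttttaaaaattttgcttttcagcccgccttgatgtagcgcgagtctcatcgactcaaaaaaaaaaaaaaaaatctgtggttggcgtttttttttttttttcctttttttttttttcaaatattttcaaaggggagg
Ebf1, chr11:44619978-44620277: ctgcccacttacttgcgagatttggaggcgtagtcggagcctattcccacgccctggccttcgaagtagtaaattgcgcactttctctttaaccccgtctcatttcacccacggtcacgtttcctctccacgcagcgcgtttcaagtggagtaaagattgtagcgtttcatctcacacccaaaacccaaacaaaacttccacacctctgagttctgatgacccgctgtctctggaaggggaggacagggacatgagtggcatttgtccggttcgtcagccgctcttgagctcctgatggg
Neither window held any of these letters. The first has long runs of A and of T toward its end and had 36.7% G and C, lower than in all but 5.33% of the 32851 windows in the table, whose median was 52.7%. The second held 53.0% G and C. Among all 32851 windows, 13.7% held the Ebf core, 1.79% the cyclic AMP response element, 1.28% the T-box motif and 35.7% the GC box. In the files, Ebf1 (ENSMUSG00000057098) extends on chromosome 11 from 44617317 to 45008091, so that both windows lie within its annotated span.

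Zfp423, the zinc finger protein that represses thermogenic genes in white adipocytes, fell. It stood at 9.31, 8.85, 9.68, 8.86 and 11.1 CPM in cotadutide mice 1 to 5, against 14.7, 13.3, 15.9 and 11.4 CPM in vehicle mice 1 to 4. All 5 cotadutide mice were below all 4 vehicle mice, with cotadutide mouse 5 and vehicle mouse 4 close to each other. The level was 1.45 times lower under cotadutide (log2 fold change -0.53, SE 0.12, edgeR adjusted p = 0.0184). The call was lost without vehicle mouse 1, 2 or 3 (edgeR adjusted p = 0.0621, 0.0526 and 0.0510), at log2 fold changes of -0.50, -0.56 and -0.47. Over all genes, only 42 to 265 were called higher and 92 to 473 lower in those fits. Zfp423 is known from adipose precursor and mural cells as well as from adipocytes. Of 12 fibroblast and adipose progenitor markers 1, Cd34, was called lower and none was at 0. Their median log2 fold change was -0.68 with 1 of 12 above 0, beside -0.53 for Zfp423, and their summed level was 712 to 1517 CPM in cotadutide and 1168 to 1854 CPM in vehicle mice. Of 8 mural cell markers 1, Abcc9, was called lower, with sums of 457.5 to 589.5 CPM in cotadutide and 487 to 665 CPM in vehicle mice. The part of these cells in the Zfp423 result was not tested. Its close paralog Zfp521, which restrains adipose commitment in mouse precursor cells, fell as well, to 2.06 ± 0.351 CPM in cotadutide mice against 3.57 ± 0.303 CPM in vehicle mice (SD, n = 5 and n = 4; log2 fold change -0.79, edgeR adjusted p = 0.0183).

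The upstream promoter of Zfp423 is shown as the counterpart to that of Ebf1. It is read from the minus strand of GRCm38.p6, with capitals for the GC box.
Zfp423, chr8:87959546-87959845: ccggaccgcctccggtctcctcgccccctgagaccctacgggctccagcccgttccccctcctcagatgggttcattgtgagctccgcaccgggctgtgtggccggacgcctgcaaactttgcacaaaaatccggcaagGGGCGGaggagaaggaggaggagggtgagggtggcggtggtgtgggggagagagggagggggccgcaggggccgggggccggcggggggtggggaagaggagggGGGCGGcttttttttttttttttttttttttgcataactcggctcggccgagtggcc
The window held 65.7% G and C, more than 83.0% of all windows. It held the GC box at 111 bases and at 7 bases before the start, and none of the other 3 motifs. The table held a second Zfp423 window, at chr8:87804390-87804689, which had a single GC box and a match to the Ebf core 28 bases before its start. In all, 9 windows of 7 of the 10 factors were searched. No window was available for Ebf2 or Tbx15, and none was used for Zfp516. The Ebf core was found in 2 of the 9 windows, the second of Zfp423 and that of Ebf3. Neither the cyclic AMP response element nor the T-box motif was found in any of the 9. No match overlapped another, and matches describe letters only. In the files Zfp423 (ENSMUSG00000045333) lies on chromosome 8 from 87661810 to 87959595.

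Because Zfp423 opposes Ebf2 and Prdm16, their counts were set against each other within each library, where scaling cancels. There were 0.357, 0.216, 0.239, 0.177 and 0.257 Zfp423 counts per Ebf2 count in cotadutide mice 1 to 5, against 0.430, 0.463, 0.442 and 0.351 in vehicle mice 1 to 4. Cotadutide mouse 1 stood among the vehicle mice and the other 4 were below them. The mean log2 ratio was lower by 0.79 under cotadutide (log2 difference -0.79, exact two-sided permutation p = 0.0317, 0.0476 after adjustment over 3 ratios).
Zfp423 counts per Prdm16 count were 0.640, 0.568, 0.597, 0.579 and 0.544 in cotadutide mice 1 to 5, against 1.20, 0.887, 1.19 and 0.733 in vehicle mice 1 to 4. The groups did not overlap (log2 difference -0.75, exact two-sided permutation p = 0.0159, the smallest that 126 splits allow, and 0.0476 after adjustment). The spread of this ratio was narrow in cotadutide mice, with an SD of 0.0357, against 0.231 in vehicle mice. These ratios contain the fall of Zfp423 itself and are not separate evidence for it. Without any 1 of cotadutide mice 2 to 5 the ratio to Ebf2 had p = 0.0571, and without any 1 of vehicle mice 1 to 3 p = 0.0714, by the exact permutation test. Without each of these 7 libraries the log2 difference lay between -0.68 and -0.81.

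**Figure D3:**
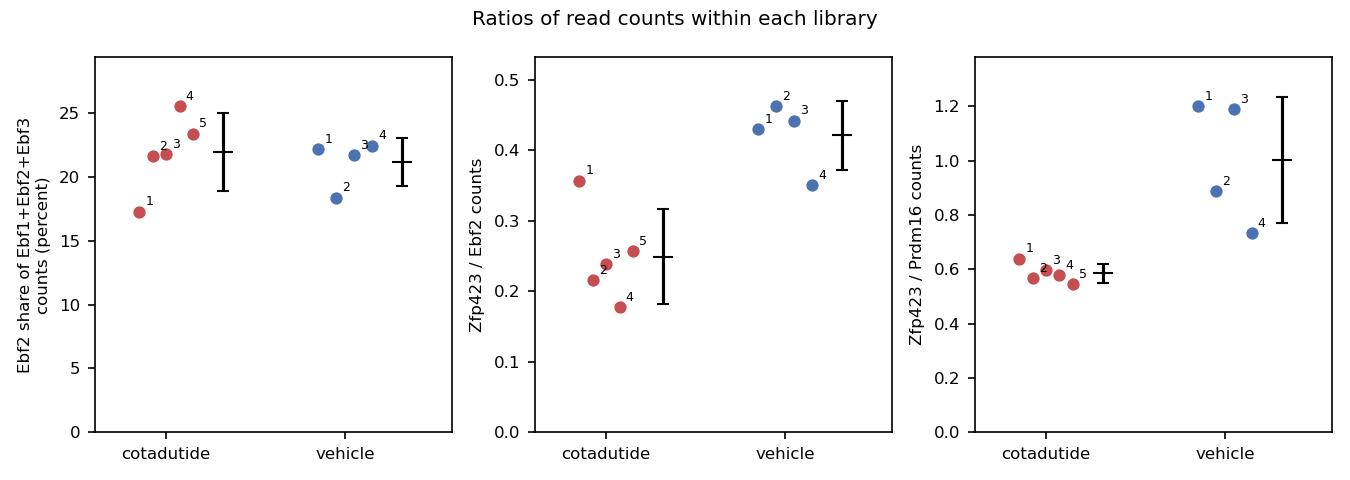
Ratios of read counts within each library, with cotadutide mice in red on the left, vehicle mice in blue on the right, mouse numbers beside the points and mean and SD as black bars. The Ebf2 share of Ebf1, Ebf2 and Ebf3 counts (left, percent) overlaps between groups. Zfp423 per Prdm16 (right) lies at 0.544 to 0.640 in cotadutide mice, below all vehicle mice.

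Tbx15 showed the largest difference of the 10 factors. It is a T-box factor of fat depots and of glycolytic muscle fibres in mice. It stood at 27.7, 11.5, 7.61, 21.7 and 24.7 CPM in cotadutide mice 1 to 5, against 35.6, 41.4, 36.1 and 53.4 CPM in vehicle mice 1 to 4. No cotadutide value reached a vehicle value. Tbx15 fell, to a level 2.23 times lower (log2 fold change -1.16, SE 0.32, 95% interval -1.85 to -0.46, edgeR adjusted p = 0.0324). It also varied most between cotadutide mice, with a coefficient of variation of 46.6%, against 19.9% between vehicle mice. The call was lost without vehicle mouse 1, 2, 3 or 4 (edgeR adjusted p = 0.0781, 0.0740, 0.0648 and 0.0825) and without cotadutide mouse 2 or 4 (0.107 and 0.0646), at log2 fold changes from -1.24 to -1.01. Calls over all genes also fell in these fits, except without vehicle mouse 4, where 2116 were higher and 1588 lower. Tbx15 (ENSMUSG00000027868) lies on chromosome 3 from 99240381 to 99354259.

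Skeletal muscle mRNA moved with Tbx15 from mouse to mouse. The muscle score, the mean log2 CPM of 16 muscle markers, was 9.99, 8.81, 7.996, 9.34 and 9.86 in cotadutide mice 1 to 5, against 10.24, 10.50, 10.37 and 11.20 in vehicle mice 1 to 4. Within the cotadutide mice the order of the score was the order of Tbx15, with mouse 1 first and mouse 3 last. The vehicle mice also had the same order on both scales, with mouse 4 first and mouse 1 last. With the score as a covariate the log2 fold change of Tbx15 was -0.06 (SE 0.155, edgeR adjusted p = 0.866). That fit called 0 of 14747 genes, although 2214 had an unadjusted p under 0.05. Since the groups did not overlap in the score, treatment and score cannot be told apart in it. In the same fit the log2 fold change was -0.59 for Zfp423, 0.17 for Ebf1 and 0.35 for Prdm16, with edgeR adjusted p of 0.274, 0.463 and 0.366. None of the 16 muscle markers was at 0, and all 16 had a log2 fold change below 0.

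**Figure D4:**
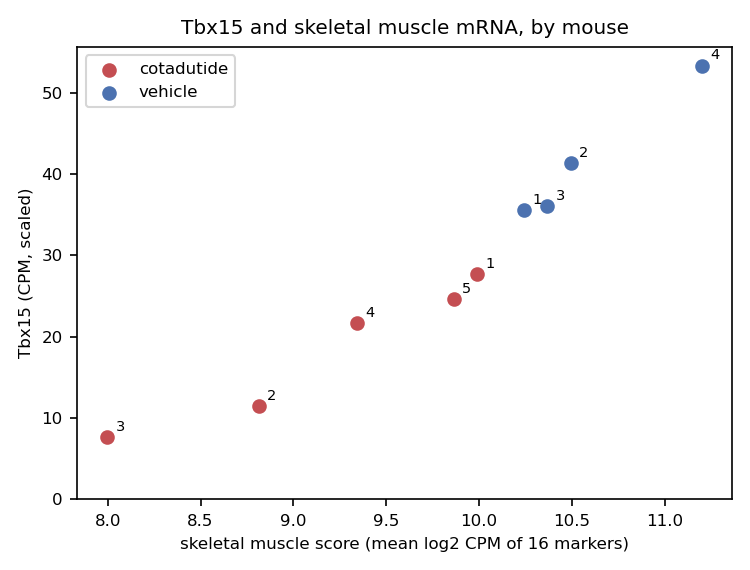
Tbx15 in scaled CPM on the vertical axis against the skeletal muscle score (mean log2 CPM of 16 markers) on the horizontal axis, 1 point per mouse with its number, cotadutide in red and vehicle in blue. The 9 mice lie in the same order on both axes, and the cotadutide mice occupy the lower left with Tbx15 of 7.61 to 27.7 CPM.

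The other positional factors were low and did not pass the test. Zic1, a zinc finger factor of neural tissue that also marks classical brown fat in mice, gave 4.22, 8.53, 4.34, 4.79 and 7.71 CPM in cotadutide mice 1 to 5, against 4.51, 2.96, 5.54 and 4.00 CPM in vehicle mice 1 to 4. Cotadutide mice 2 and 5 were above all others and the remaining 3 lay among the vehicle mice (log2 fold change 0.47, SE 0.26, 95% interval -0.09 to 1.03, edgeR adjusted p = 0.208). Zic1 shares 60 exonic bases with Zic4 on the opposite strand, and the strand setting of the counting is not given in the sources used here. Zic4 was higher in every cotadutide mouse, at 1.08 ± 0.199 CPM against 0.613 ± 0.173 CPM in vehicle mice and did not pass the threshold (log2 fold change 0.83, edgeR adjusted p = 0.0510). Lhx8, a LIM homeobox factor that marks brown fat, gave 2.83, 3.14, 1.57, 2.42 and 4.38 CPM in cotadutide mice 1 to 5, against 2.33, 1.48, 2.30 and 1.89 CPM in vehicle mice 1 to 4. Its counts were 22 to 60 per library, the lowest of the 10 factors, and the 95% interval of its log2 fold change ran from -0.09 to 1.10 (edgeR adjusted p = 0.203). Zfp516 averaged 7.43 ± 1.57 CPM in cotadutide and 8.47 ± 0.931 CPM in vehicle mice (SD, n = 5 and n = 4; log2 fold change -0.18, 95% interval -0.52 to 0.15, edgeR adjusted p = 0.418).

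For likeness of pattern, the centred log2 CPM of each factor over the 9 libraries was compared with that of 11821 other protein-coding genes by the root mean square difference. Nearest to Tbx15 were Cacna2d1, a calcium channel subunit, and Myom1, a protein of the muscle sarcomere, at differences of 0.107 and 0.111 log2 units, against a median of 0.863 over all genes. Nearest to Ebf1 were Snrnp200, a spliceosome helicase, and Tnfaip8, at 0.041 and 0.052 (median 0.263). Nearest to Zfp423 were Trps1, a zinc finger repressor, and Hspa13, at 0.069 and 0.091 (median 0.366). Pfas and Sclt1 were nearest to Prdm16 at 0.072 and 0.085 (median 0.274). Among the genes nearest to Ebf2 was Tob2, at 0.111 (median 0.339).

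Genes of the machinery around these factors were taken from lists chosen for their roles. Of 18 partner proteins, 3 rose and 0 fell, with a median log2 fold change of 0.12 against 0.003 over all genes tested. Counts of calls in this and the lists that follow stand beside 9.31% of all genes called higher and 9.34% called lower, and none was tested against that background. Cebpb, which forms the complex with Prdm16 that starts the brown programme, rose to 321.5 ± 92.2 CPM in cotadutide mice, against 177 ± 26.9 CPM in vehicle mice (SD, n = 5 and n = 4; 1.82-fold, edgeR adjusted p = 0.0234). Nfia, a nuclear factor that prepares brown fat enhancers, rose 1.56-fold (157 ± 25.7 CPM for cotadutide, 101 ± 24.9 CPM for vehicle, edgeR adjusted p = 0.0258). Gtf2ird1, a partner of Prdm16 in repressing matrix genes, rose 1.30-fold (edgeR adjusted p = 0.0243). Of 14 tested paralogs of the factors, 1 rose and 1 fell. Tbx3, another T-box factor, rose 1.62-fold (15.9 ± 1.71 CPM for cotadutide, 9.89 ± 1.65 CPM for vehicle, edgeR adjusted p = 0.0147), opposite to Tbx15, and the one that fell was Zfp521. Ehmt2, the paralog of Ehmt1, was higher in every cotadutide mouse but did not pass (77.7 ± 2.67 CPM for cotadutide, 68.5 ± 2.65 CPM for vehicle, edgeR adjusted p = 0.0707). For Mecom, the paralog of Prdm16, the log2 fold change was -0.05 (edgeR adjusted p = 0.828).

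Of 14 tested regulators of Prdm16 level and of brown commitment, 4 fell and 0 rose, with a median log2 fold change of -0.12. They included the BMP receptor genes Bmpr2 (1.23 times lower, edgeR adjusted p = 0.0223) and Bmpr1a (1.40 times lower, 0.0367), which relay a brown-promoting signal, and the homeobox gene Irx5 (1.96 times lower, 0.0289). Of 17 tested brown-selective genes known to be activated by Prdm16 or Ebf2, 5 rose and 0 fell, all 17 had a log2 fold change above 0, and the median was 0.39. The 12 markers shared by fat cells stood at a median of 0.42, with 7 called higher and 11 above 0, while the 16 muscle markers stood at -1.20, and the part of these cells in the result was not tested. Among the 5 brown-selective genes that rose was the potassium channel gene Kcnk3 (470 ± 96.2 CPM for cotadutide, 209 ± 77.0 CPM for vehicle, edgeR adjusted p = 0.0163). Another was the proton channel gene Otop1 (236 ± 23.2 CPM and 181 ± 9.19 CPM, edgeR adjusted p = 0.0213). The lipid droplet gene Cidea (1.42-fold, edgeR adjusted p = 0.0184) and the cytochrome oxidase genes Cox8b (1.90-fold, 0.0247) and Cox7a1 (log2 fold change 0.58, 0.0431) made up the 5. The groups overlapped for Cox8b and for Cox7a1. Among the genes of this list not called were Ucp1, Ppargc1a, Elovl3 and Dio2 (edgeR adjusted p = 0.159, 0.176, 0.433 and 0.575). Of 11 tested white-selective or beige-selective genes, 3 fell and 0 rose (Lep, Npr3 and Mest), with a median of -0.18. Lep, the leptin gene, stood at 14.2 to 44.3 CPM in cotadutide mice and at 50.3 CPM in vehicle mouse 4, while vehicle mice 1 to 3 had 271 to 320 CPM. Npr3 was also lowest among vehicle mice in mouse 4, at 96.48 CPM against 347.6 to 376.6 CPM in vehicle mice 1 to 3. For Mest, vehicle mouse 4 at 3.835 CPM lay within the cotadutide range of 2.572 to 7.615 CPM. Of 7 tested myogenic regulators, 3 fell and 0 rose, with a median of -1.21. Mef2c fell by 1.32 on the log2 scale (40.4 ± 14.7 CPM for cotadutide, 101 ± 16.3 CPM for vehicle, edgeR adjusted p = 0.0157), while Myf6 was 2.31 times and Myog 2.64 times lower. The muscle markers described above moved with this list, and their part in it was not tested.

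By comparison, of 12 PPAR, PGC-1 and ERR regulators 3 rose and 0 fell (Rxrb, Ppargc1b and Esrra; median log2 fold change 0.17). Of 12 tested C/EBP, KLF and STAT5 factors 2 rose and 0 fell (Cebpa and Cebpb; median 0.15), and Stat5a was at 0.28 (edgeR adjusted p = 0.0620). No test was made between these lists and the identity factors. In all, 24 genes of the lists were called, and these calls, like those over all genes, depended on single libraries. Lep and Npr3 were the 2 still called without vehicle mouse 1 and the 2 still called without vehicle mouse 2. There were 8 without vehicle mouse 3, 11 without cotadutide mouse 2, 15 without cotadutide mouse 3, and 20 to 22 without each of the others. Over all genes tested, 1373 were higher and 1378 lower with every library kept. Those counts were 47 and 92 without vehicle mouse 1, 42 and 105 without mouse 2, and 265 and 473 without mouse 3. Without cotadutide mouse 2 they were 465 and 349, and without cotadutide mouse 3 they were 546 and 818.

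**Figure D5:**
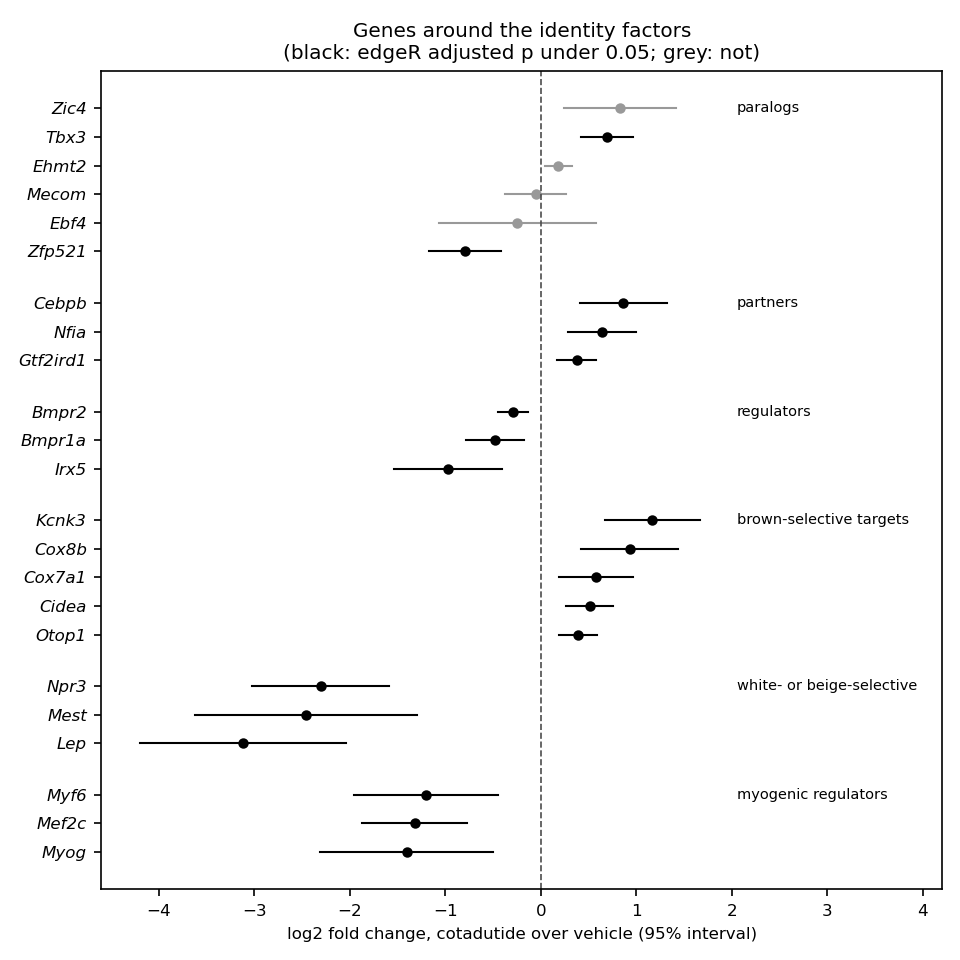
Log2 fold change, cotadutide over vehicle, with 95% intervals from edgeR, for named genes of 6 lists around the identity factors (rows, grouped by list). Black points had an adjusted p under 0.05. The partners and brown-selective genes shown lie right of 0 and the regulators, white-selective genes and myogenic regulators left of it, as named genes were those with the smallest p of each list and Ebf4, Ehmt2, Mecom, Nfia and Zfp521.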

How the data were processed

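Raw counts of reads per Ensembl gene, 1 deposited file per mouse, were the starting point. Per the submitters' processing notes, the tools were STAR 2.5.2b, Trimmomatic 0.36, bcl2fastq 2.17 and, from Subread 1.5.2, featureCounts, with build mm10. The sources used here give neither their settings nor the release of the annotation. Libraries were made with a polyA protocol from 30 mg of tissue, per the labels' protocols. Symbols came from the supplied annotation, which matched 48970 of 49315 identifiers.

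Counts were filtered with filterByExpr, TMM-scaled (factors 0.914 to 1.06) and tested with edgeR 4.0.16 in R 4.3.3 (glmQLFit with robust dispersion, glmQLFTest, group as the only term). An SE was the absolute log2 fold change over the root of F. Log2 CPM used a prior count of 2. DESeq2 1.42.0 and limma-voom 3.58.1 were alternatives. The fits were checked on simulated counts with 200 changed genes. For within-library ratios the permutation tests were exact and two-sided. The most alike pair of libraries of a group differed by a chi-square of 12.2 per degree of freedom, so each counted as 1 replicate. The members, lists, ratios and tests were chosen with earlier results of these data known. From each list the 3 genes with the smallest p were named, with Ebf4, Zfp521, Ehmt2, Mecom and Nfia. For Prdm16, Ebf2 and each factor called, the 2 nearest genes with a mean of at least 1 CPM were named. Bmpr1a, Cox7a1, Cox8b, Ucp1, Ppargc1a, Elovl3 and Dio2 were added after their values were seen. Some genes the rule names are not reported here. Motif letters were chosen after the data were examined.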

Additional observations from a re-analysis of the deposited data

Results flagged for a closer look

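Each of 26 groups of values, the 10 factors and 3 ratios in either treatment, was searched for a mouse far from the rest, a search that flags about 1 group in 20 by chance. Prdm16 was 20.5 CPM in cotadutide mouse 5, against 14.6 to 16.2 CPM in the other cotadutide mice. Ebf3 was 31.8 CPM in vehicle mouse 4, while vehicle mice 1 to 3 had 42.4 to 43.4 CPM. Ehmt1 was 16.7 CPM in cotadutide mouse 2, against 22.3 to 23.7 CPM in the other cotadutide mice.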

How the results depend on the processing

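With RLE scaling, mitochondrial genes left out, a stricter filter, DESeq2 or limma-voom, the counts stayed at 1 factor higher (Ebf1) and 2 lower (Tbx15 and Zfp423). With plain library totals 0 factors were higher, and 1046 genes were higher and 1658 lower, against 1373 and 1378 in the main test. Without a filter, where more genes were tested, 0 factors were higher and 1 lower (Zfp423), and 900 genes were higher. With the muscle score as a covariate 0 factors and 0 genes were higher or lower by edgeR, while 2 factors (Lhx8 and Zfp423) had an unadjusted p under 0.05, and the log2 fold change of Ehmt1 turned to 0.033 and that of Ebf4 to 0.29; the cause was not tested. The labels do not say whether mouse numbers pair the samples, and 4 correlations cannot settle it. Same-numbered libraries had correlations of 0.135, -0.04, 0.023 and -0.011 in their deviations from the group means. Of 4 vehicle libraries, 1 correlated best with its own number. With the number as a replicate block 0 factors were higher and 2 lower, 516 genes were higher and 768 lower, Mecom turned to 0.024, and the ratios of Zfp423 to Ebf2 and to Prdm16 differed by -0.81 and -0.72 (exact sign-flip p = 0.125, the smallest 4 pairs allow). Leaving out 1 library gave 0 to 2 factors higher, 0 to 2 lower, 42 to 2116 genes higher, 92 to 1724 lower and 3 to 4 factors without overlap. No factor was called without vehicle mouse 1, 2 or 3, where 3 factors had an unadjusted p under 0.05 in each fit (Ebf1, Tbx15 and Zfp423). Over all genes in those fits, 47, 42 and 265 were called higher and 92, 105 and 473 lower. Genes with an unadjusted p under 0.05 were 4010 of 14816, 4359 of 14823 and 4440 of 14923. With any 1 library left out, the log2 differences ranged from -0.93 to -0.68 for Zfp423 to Ebf2 and from -0.89 to -0.65 for Zfp423 to Prdm16. The Ebf2 share ranged from -0.024 to 0.125 and changed sign, as did Ehmt1 (-0.077 to 0.059) and Mecom (-0.17 to 0.005). Over 18 alternatives Zfp423 passed in 14, Tbx15 in 10 and Ebf1 in 9, each with its direction kept. Counts were lowest for Lhx8, at 22 to 60 per library.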
